A study of Mus musculus with 5 samples.

Results

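The loci of 10 Sox genes were examined in a map of Pou4f1 on the chromatin of the mouse retina. The genes were Sox4, Sox11 and Sox12 (SoxC), Sox1, Sox2 and Sox3 (SoxB1), Sox8 and Sox9 (SoxE) and Sox5 and Sox6 (SoxD). A region was taken when it overlapped the body of a gene in GENCODE M21 or lay within 100 kb of it on mm10, and 18 of the 8038 regions in the table met this rule. SoxC loci held 8 of them, SoxB1 loci 1, SoxE loci 2 and SoxD loci 7. The map was made by CUT&Tag, in which an antibody directs a transposase to the DNA beside its target protein. Each library came from 4 pooled retinas of wild-type embryos at E16.5, and all groups shared this genotype and age. There were 2 libraries with a rabbit anti-Pou4f1 antibody and 2 with rabbit IgG as the control, and the H3K9AC library was not analysed here. Pou4f1 is a POU-domain factor of differentiated retinal ganglion cells (RGCs), and whole retinas also hold progenitors and other neurons, so the cells that gave a signal cannot be told apart.

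Sox factors bind DNA through an HMG box and often act beside POU factors. SoxC proteins drive neuronal differentiation and are needed for RGCs to form, whereas SoxB1 and SoxE proteins keep retinal progenitors and later mark glia. SoxD proteins lack an activation domain of their own and act with other Sox factors.

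The sequences below came from the mm10 assembly and show what kinds of DNA the regions at these loci held. The central 200 bases of 4 regions are printed first, each on the strand of its gene (minus), with CG dinucleotides in capitals. Those of Sox11 and Sox12 lay just before the gene start, that of Sox4 farther upstream, and that of Sox5 deep inside the gene.
Sox4 upstream, chr13:28958618-28958817: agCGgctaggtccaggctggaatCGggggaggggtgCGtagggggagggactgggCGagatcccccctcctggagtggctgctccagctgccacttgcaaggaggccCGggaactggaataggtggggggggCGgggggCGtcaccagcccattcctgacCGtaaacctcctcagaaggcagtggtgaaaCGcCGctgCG
Sox11 upstream, chr12:27343195-27343394: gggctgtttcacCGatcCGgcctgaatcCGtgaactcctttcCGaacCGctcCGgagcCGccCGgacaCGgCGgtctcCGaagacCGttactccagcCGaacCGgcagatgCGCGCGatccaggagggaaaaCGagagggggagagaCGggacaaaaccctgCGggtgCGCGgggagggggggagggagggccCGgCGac
Sox12 upstream, chr2:152398823-152399022: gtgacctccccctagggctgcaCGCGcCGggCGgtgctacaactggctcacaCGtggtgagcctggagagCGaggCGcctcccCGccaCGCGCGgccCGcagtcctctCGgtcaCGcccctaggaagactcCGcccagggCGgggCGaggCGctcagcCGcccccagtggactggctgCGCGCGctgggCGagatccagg
Sox5 intron, chr6:144472497-144472696: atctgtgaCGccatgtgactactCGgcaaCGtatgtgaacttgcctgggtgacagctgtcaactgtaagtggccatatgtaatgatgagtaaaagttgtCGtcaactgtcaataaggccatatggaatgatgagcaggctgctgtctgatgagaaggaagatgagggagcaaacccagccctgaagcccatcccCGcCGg
The stretches from Sox11 and Sox12 held 24 and 23 CG dinucleotides, against 11 in that of Sox4 and 6 in that of Sox5.

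Stretches of a further Sox5 region and a Sox6 region are shown on the plus strand because they hold Sox core letters, ACAATG or ACAAAG on either strand, which are in capitals.
Sox5 intron, Sox core, chr6:144611403-144611673: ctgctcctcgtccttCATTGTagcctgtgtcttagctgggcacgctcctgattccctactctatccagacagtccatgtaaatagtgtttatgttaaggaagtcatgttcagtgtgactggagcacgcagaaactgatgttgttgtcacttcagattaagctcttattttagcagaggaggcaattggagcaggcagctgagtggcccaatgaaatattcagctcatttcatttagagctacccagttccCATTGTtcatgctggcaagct
Sox6 intron, Sox core, chr7:115660452-115660571: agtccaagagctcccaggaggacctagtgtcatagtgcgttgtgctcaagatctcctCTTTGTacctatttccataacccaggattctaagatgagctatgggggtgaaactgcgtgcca
The last 2 are tandem repeats, shown because their IgG signal reached or passed that of Pou4f1. This held at Sox5 in both IgG columns and at Sox8 in the column named IgG relative to Pou4f1 replicate 2. They are on the plus strand, with alternate blocks, each a repeat period long, in capitals.
Sox5 repeat, chr6:144595102-144595215: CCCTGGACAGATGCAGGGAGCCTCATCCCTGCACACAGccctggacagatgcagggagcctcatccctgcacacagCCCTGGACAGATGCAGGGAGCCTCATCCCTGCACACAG
Sox8 repeat, chr17:25659106-25659220: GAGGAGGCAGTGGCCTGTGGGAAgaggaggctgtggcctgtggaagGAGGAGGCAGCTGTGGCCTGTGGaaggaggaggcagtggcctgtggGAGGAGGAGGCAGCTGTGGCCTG
The repeat period, scored by matches between bases at a fixed offset, was 38 bases in the Sox5 region (81.0% match). It was 23 bases in the Sox8 region (81.4% match). Copies in the Sox8 stretch vary in length, so its capitals mark 23-base blocks and not whole units.

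Values are the deposited signal, and how it was scaled is not known. Regions had been chosen by the authors for their Pou4f1 signal, so a higher Pou4f1 than IgG value was built into the table. Differences were tested by limma on log2(signal + 1), which understates changes at low signal, with p-values adjusted by Benjamini-Hochberg across the whole table of 8038 and a cutoff of 0.05. IgG signal was sparse. It was 0 in 46.2% of all regions in one IgG column (named IgG) and 43.2% in the other (named negative control), and 13 of the 36 IgG values at the Sox loci were 0. Where both IgG values were 0 they had no spread, so a small p-value there does not mean a strong Pou4f1 signal. The study calls its replicates independent but does not say whether each came from its own pool of retinas, so the tests measure the spread between these libraries, which may be technical.

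At the Sox loci, signal was higher with anti-Pou4f1 than with IgG in 10 of 18 regions (55.6%), against 64.8% of all regions, and it was lower in 0 by limma. Each Pou4f1 value exceeded each IgG value in 16 of 18, against 96.5% of all regions. By class, 4 of 8 SoxC regions, the SoxB1 region, 0 of 2 SoxE regions and 5 of 7 SoxD regions passed the test. Over the whole table, 62.1% of regions within 1 kb of a start and 69.6% of those away from starts were called higher. The median log2 difference was 3.91 at the Sox loci and 5.22 over all regions. Median signal (the mean of the Pou4f1 libraries) was 146 and 173, and 7 of the 18 regions were above the median of the table. The highest ranked 1813 and the lowest 7903 of 8038, so the Sox loci were not among the strongest. The 10 calls fell without either Pou4f1 replicate and rose without an IgG column, as did the share of all regions called higher. Each of these fits left 1 library in a group, so only the effect size is given. The median log2 difference was then 3.80 to 4.47 at the Sox loci and 4.61 to 5.42 over all regions. The called regions at 0 in 1 IgG column (Sox11 upstream, Sox5 at 170 kb and both Sox6 intron regions) were each called in 5 of 11 alternatives, and IgG multiplied by 2 ended each of these calls. The 10 calls also fell to 3 with column totals as library sizes, where 22.7% of all regions were called higher. There the median of all regions moved by -2.48. The sign turned at 6 Sox regions (in Sox4 and Sox9, at 3 regions of the Sox12 window and near Sox6). In all of these settings the share of all regions called higher moved the same way as the Sox calls.

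**Figure D1:**
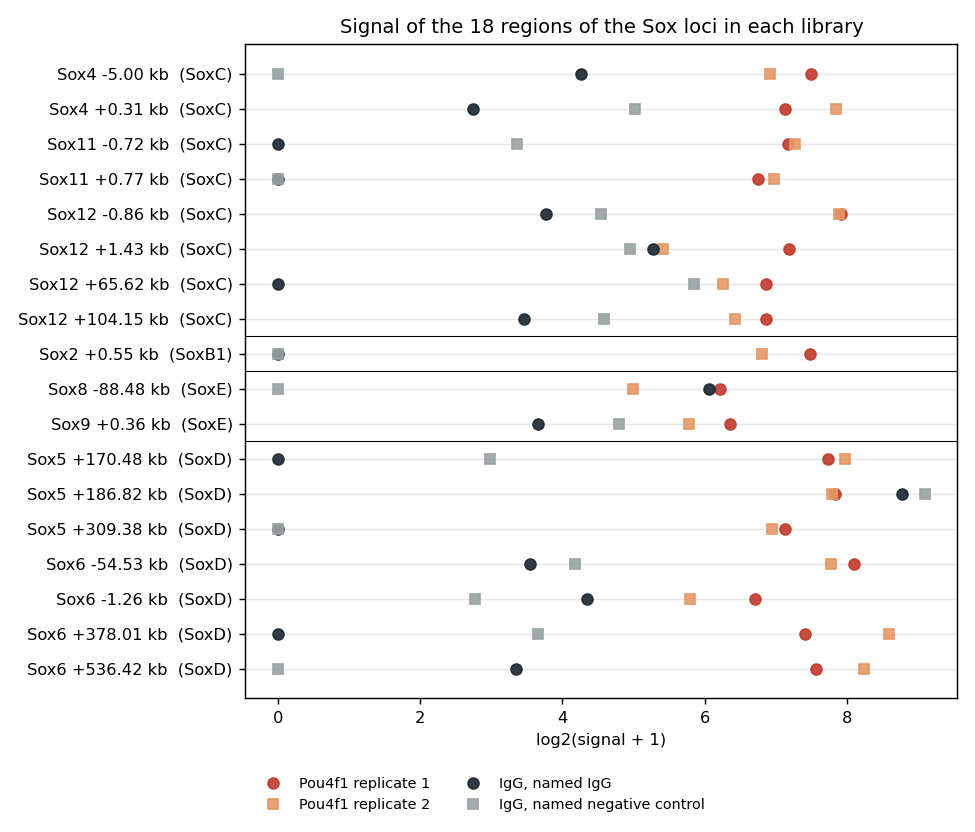
Signal of each of the 18 regions in the 4 libraries on the log2(signal + 1) scale, with regions named by gene and distance from its start and lines between the classes. Pou4f1 points lay to the right of both IgG points in 16 regions, and the exceptions were the tandem repeats at Sox5 and Sox8.

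Of the 10 genes, 8 had a region in the window, against 66.0% of 21755 protein-coding genes, and 5 had a region with its midpoint within 1 kb of a start, against 25.1%. These 5 were Sox4, Sox11, Sox12, Sox2 and Sox9. Sox11 had 2 regions at its start, as did 0.758% of genes (2 or more). A fixed list of 10 other Sox genes, of which 9 lay on chromosomes with regions, gave 12 regions in 7 windows. Of these, 6 were called higher, against 64.8% of all regions, and 0 of the listed genes had a region within 1 kb of a start. Sox21, a SoxB2 gene, came nearest at 1.05 kb.

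**Figure D2:**
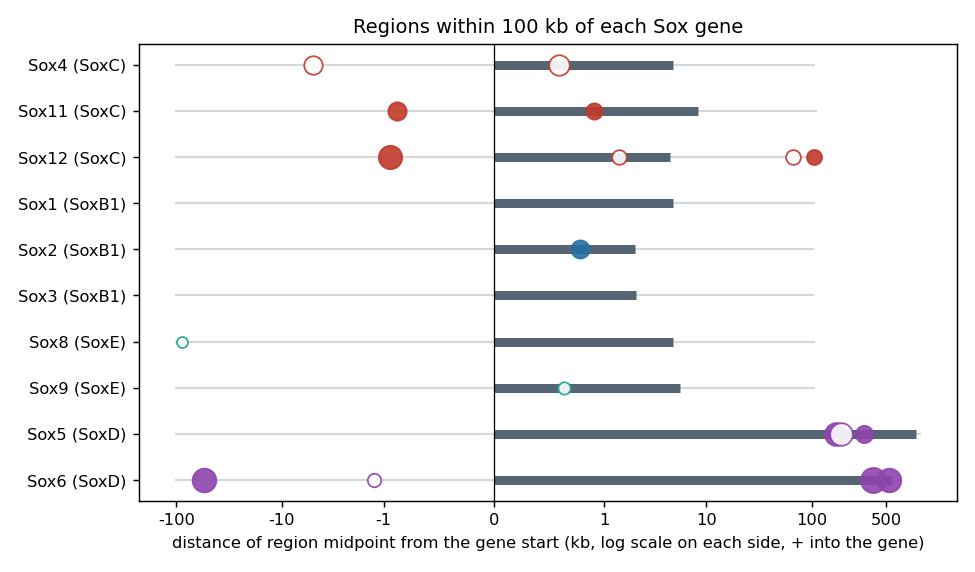
Midpoints of the regions by distance from the gene start in kb (log scale on each side), with the gene body in dark grey, the 100 kb flanks in light grey and circle area proportional to mean Pou4f1 signal. Filled circles passed the test. Sox4, Sox11, Sox12, Sox2 and Sox9 each had a region within 1 kb of the start, Sox5 and Sox6 had none that near, and Sox1 and Sox3 had none in the window.

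Among the SoxC genes, Sox12 had the strongest start region. It lay 0.86 kb upstream (chr2:152398455-152399390), outside any exon. Its signal was 240 and 236 in Pou4f1 replicates 1 and 2, against 12.6 (column IgG) and 22.3 (column negative control) with IgG, the order kept from here on. The replicates were nearly equal and far above IgG, with a log2 difference of 3.74 ± 0.48 (SE, n = 2 per group; limma adjusted p = 0.0112). It ranked 2423 of all regions.

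Sox11, which acts with Sox4 in RGC formation, carried a region on each side of its start. The upstream region, 0.72 kb away (chr12:27342637-27343953), had Pou4f1 signal of 142 and 152 and IgG signal of 0 and 9.25. The groups did not overlap, and the log2 difference was 5.53 ± 1.38 (SE, n = 2 per group; limma adjusted p = 0.0417). The other region, 0.77 kb into the gene (chr12:27341199-27342412), had Pou4f1 signal of 106 and 124 and was at 0 in both IgG libraries, so no fold is given (limma adjusted p = 0.00222). Of its 1214 bases, 1185 were coding sequence of Sox11.

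Sox4 had 2 regions, and neither passed the test. The region 0.31 kb into the gene (chr13:28952904-28953902), with 810 bases in the exon and 118 of them coding, had Pou4f1 signal of 139 and 229 and IgG signal of 5.72 and 31.3. Both antibodies differed between replicates here, and the log2 difference was 3.61 ± 1.01 (SE, n = 2 per group; limma adjusted p = 0.0510). The intergenic region farther upstream (chr13:28958206-28959229) had 179 and 119 with anti-Pou4f1 and 18.2 and 0 with IgG (log2 difference 5.07 ± 1.74 SE, n = 2 per group; limma adjusted p = 0.0712). Both Sox4 regions had Pou4f1 values above all IgG values.

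The Sox12 window was crowded, with 9 starts of other protein-coding genes, and its other 3 regions were weaker. They are described after their values were seen. The region 1.43 kb into Sox12 (chr2:152396170-152397106) had Pou4f1 signal of 145 and 41.5 and IgG signal of 37.5 and 30.0. Replicate 2 was close to IgG there (log2 difference 1.19 ± 0.80 SE, n = 2 per group; limma adjusted p = 0.235). A region at the start of Rbck1, a ubiquitin ligase gene, had 115 and 75.0 against 0 and 56.3 (limma adjusted p = 0.219). A region at the start of Tbc1d20, a Rab GTPase-activating protein gene, had 115 and 84.4 against 9.97 and 22.9 (limma adjusted p = 0.0368).

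Of the SoxB1 genes only Sox2, the core progenitor factor, had a region. It lay 0.55 kb into the gene (chr3:34650599-34651316), and all of its 718 bases were coding sequence of the only exon, which lies inside the long noncoding gene Sox2ot. Pou4f1 signal was 177 and 110 and both IgG libraries were at 0 (limma adjusted p = 0.00248). Replicate 1 was the higher, and the region ranked 5027. The nearest region to Sox1 was 127 kb from its start and the nearest to Sox3 was 2038 kb away.

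The SoxE genes gave the lowest signal. The Sox9 region lay 0.36 kb into the gene (chr11:112782059-112783107), with 792 bases in the exon and 431 coding, and a start of BC006965 was also within 1 kb. Pou4f1 signal was 80.3 and 53.8 and IgG signal 11.6 and 26.7. The groups did not overlap, but the log2 difference of 1.84 ± 0.62 (SE, n = 2 per group) missed the threshold (limma adjusted p = 0.0705). Sox8 had a region 88.48 kb upstream (chr17:25658758-25659569), in an intron of Lmf1, a lipase maturation gene. Its signal was 73.5 and 30.8 with anti-Pou4f1 and 65.7 and 0 with IgG, so the groups overlapped (log2 difference 2.58 ± 2.47 SE, n = 2 per group; limma adjusted p = 0.373).

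Over the 6 regions at a start of the Sox genes themselves, 4 passed the test, against 62.1% of all regions within 1 kb of a start. The 2 that lay over 50% in coding sequence (Sox11 and Sox2) were among the 4. Of all regions within 1 kb of a start, 4.70% lay over 50% in coding sequence. In order of mean Pou4f1 signal (± SD, n = 2) they were the Sox12 region at 238 ± 2.55, that in Sox4 at 184 ± 63.9, the upstream region of Sox11 at 147 ± 7.13, that of Sox2 at 144 ± 47.6, the coding region of Sox11 at 115 ± 12.3 and that of Sox9 at 67.0 ± 18.8. Only the steps from Sox12 to Sox4 and from Sox11 to Sox9 were free of overlap between replicates.

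SoxC and progenitor (SoxB1 and SoxE) regions were compared within each library. The SoxC set included the regions at the starts of Rbck1 and Tbc1d20, and the progenitor set included the repeat in Lmf1. Mean log2(signal + 1) over the 8 SoxC regions exceeded that over the 3 progenitor regions by 0.49 and 1.01 in the Pou4f1 libraries (mean 0.75). In the IgG libraries the difference was -0.80 and 1.94. The Pou4f1 values lay between the IgG values, and the exact permutation test over libraries gave p = 1 (two-sided, n = 2 per group, smallest possible p 0.333). Without the Sox8 repeat the difference was 0.26 and 0.58 in the Pou4f1 libraries (mean 0.42). Both values were below the 0.61 and 1.14 of the IgG libraries, so SoxC regions then had no excess over IgG. Over regions at the genes' own starts the mean difference was 0.76 with anti-Pou4f1 and 0.32 with IgG, and the libraries overlapped. In the Pou4f1 libraries it was -0.14 when Sox5 and Sox6 were added to the progenitor genes.

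**Figure D3:**
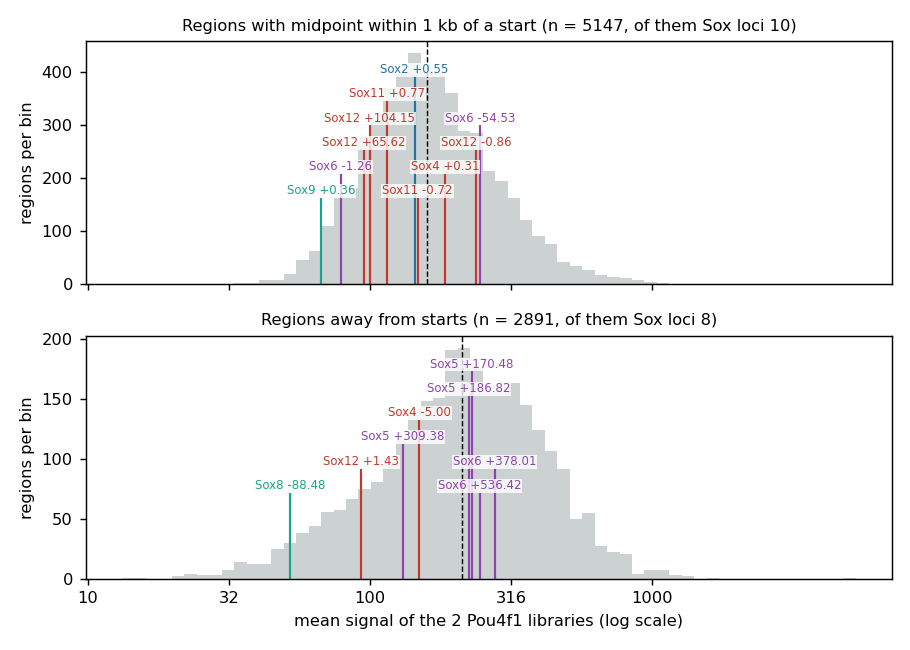
Mean Pou4f1 signal (log scale) of all regions within 1 kb of a start (top) and away from starts (bottom), with regions per bin on the vertical axis, the median dashed and the Sox regions as coloured lines. In the top panel Sox12 -0.86 kb, Sox4 +0.31 kb and Sox6 -54.53 kb stood to the right of the median. Sox12 +65.62 kb and Sox12 +104.15 kb stood to the left of it, and Sox9 near the low end. In the lower panel 4 SoxD regions were above the median.

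SoxD regions were mostly away from starts (5 of 7), with a median rank of 2569 against 5539.5 for SoxC. Over all regions the median rank was 2950 away from starts and 4511 at starts, so the classes also differed in position. The SoxD median includes the Sox5 repeat (rank 2699), where IgG exceeded Pou4f1. The highest mean Pou4f1 signal of the 18 lay in an intron of Sox6, 378 kb into the gene (chr7:115660364-115661216) and 1.58 kb from an internal start. Signal was 169 and 383 with anti-Pou4f1 and 0 and 11.6 with IgG. Its place rested on replicate 2, since in replicate 1 it was below the Sox12 upstream region (240), among others. The log2 difference was 6.17 ± 1.56 (SE, n = 2 per group; limma adjusted p = 0.0427). A second Sox6 intron region, 536 kb into the gene (chr7:115502043-115502710), had 187 and 301 against 9.13 and 0 (limma adjusted p = 0.0351).

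The other Sox6 regions were at starts of 1110004F10Rik, which lies beside it, and a start of 1700003G18Rik was also within 1 kb of the stronger. The stronger, 54.53 kb upstream of Sox6 (chr7:116092888-116093764), had 273 and 218 with anti-Pou4f1 and 10.7 and 17.1 with IgG, a log2 difference of 4.07 ± 0.47 (SE, n = 2 per group; limma adjusted p = 0.00866). The weaker, 1.26 kb upstream (chr7:116039442-116040663), had 103 and 54.6 against 19.3 and 5.82 (limma adjusted p = 0.0573). Both had Pou4f1 values above all IgG values.

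All 3 Sox5 regions lay inside the gene only through transcripts not annotated as protein-coding, 263 to 402 kb from the nearest start of a coding transcript. The region 170 kb in (chr6:144611064-144611931) had 211 and 249 with anti-Pou4f1 and 0 and 6.86 with IgG (log2 difference 6.36 ± 1.23 SE, n = 2 per group; limma adjusted p = 0.0270). The region 309 kb in (chr6:144472182-144473011) had 139 and 122 and was at 0 in both IgG libraries (limma adjusted p = 0.00222). Both were well above IgG in each replicate.

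The remaining Sox5 region, 187 kb in (chr6:144594677-144595641), went the other way. Pou4f1 signal was 227 and 219, and IgG signal was 436 and 545. Both IgG values were above both Pou4f1 values, and they ranked 2 and 5 among all regions in their libraries. The log2 difference was -1.12 ± 0.40 (SE, n = 2 per group) and missed the threshold (limma adjusted p = 0.0746). The region was called lower in 5 of the 11 alternatives, with a limma trend, a pseudocount of 10, IgG multiplied by 2 or 4, and column totals (adjusted p 0.00579 to 0.191 over all 11).

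Repeated sequence went with the IgG signal. In the Sox5 region 78.0% of the bases lay in 16-base words that occurred more than once in the region, and in the Sox8 region 98.2%. Over 50% was repeated in 253 of 8028 regions on chromosomes (3.15%), and in none of the other 16 Sox regions. Each IgG value exceeded each Pou4f1 value in 115 of these 253 regions (45.5%) and in 1 of the other 7775. How repeats entered the signal was not tested.

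**Figure D4:**
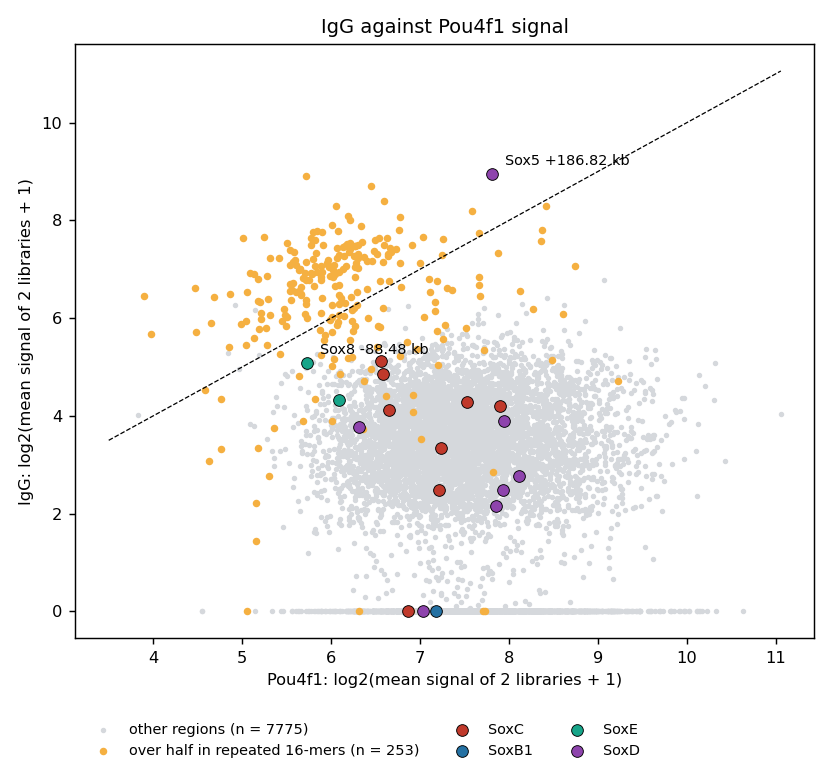
Mean IgG against mean Pou4f1 signal of the regions on chromosomes, each as log2(mean + 1), with repeat-rich regions in orange and the line of equal signal dashed. The Sox5 repeat lay above the line among repeat-rich regions, and the other 17 Sox regions lay below it.

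Base composition went with position. The SoxC regions, of which 6 of 8 lay at a start, held 56.6 to 110 CG dinucleotides per kb, and the Sox2 and Sox9 regions held 86.4 and 85.8. The SoxD regions at starts, both beside Sox6, held 57.01 and 46.64. The 4 SoxD intron regions without repeats held 13.8 to 16.9, near the median of 14.0 for all regions away from starts, where the median at starts was 75.5. The repeats at Sox5 and Sox8 held 1.04 and 1.23 per kb although G and C made up 59.7% and 64.9% of their bases.

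**Figure D5:**
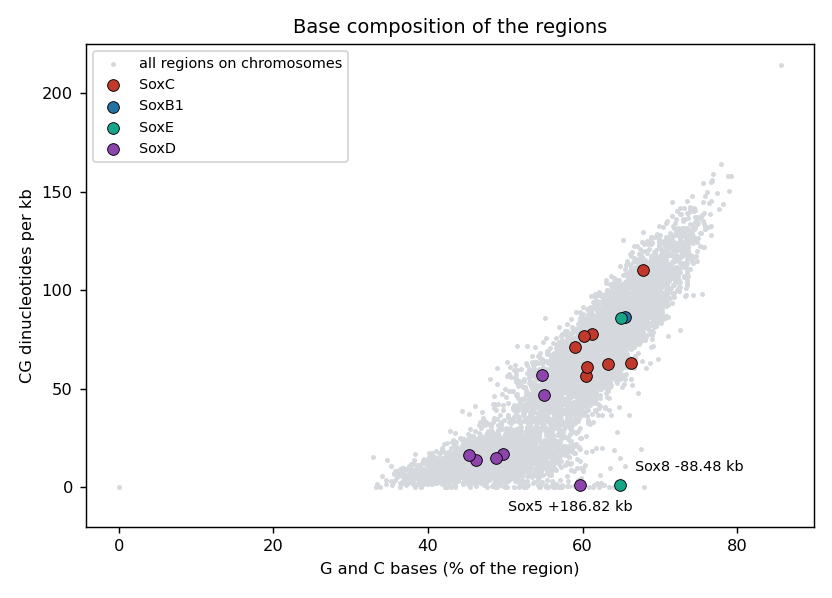
CG dinucleotides per kb against the percentage of G and C for all regions on chromosomes (grey) and the Sox regions by class. SoxC, Sox2 and Sox9 regions fell in the CG-rich cloud, the SoxD regions in the CG-rich cloud at starts and the CG-poor cloud in introns, and the labelled repeats below both.

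A POU4-type motif was searched on both strands as ATNAATAATT or ATNAATTATT. It was found in 0 of the 18 Sox regions, against 11.1% of all regions, 2.70% of those at starts and 26.1% of those away from starts. With any base in the fourth place it was also found in 0, against 17.4%. The octamer core TGCAAAT occurred in 1 region, that of Sox5 at 170 kb, against 9.75% of all regions. Either Sox core was present in 8 of 18 regions, against 54.6% of all regions, 48.3% of those at starts and 65.9% of those away from starts. By class it was present in 2 of 8 SoxC regions and 6 of 7 SoxD regions, and these classes also differed in position. The printed Sox5 stretch holds 2 of the 3 ACAATG matches of its region. These counts describe letters only, since the regions differ in length and composition.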

How the data were processed

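Per the labels and the study's methods, the authors masked low-complexity sequence, aligned reads to mm10 with Bowtie2 2.4.5, called regions with SEACR in relaxed mode and deposited 1 signal value per region and library. The sources used here give neither scaling nor depth. The column named negative control was taken as IgG, the study's only negative control. Region starts were converted to 1-based.

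Genes came from GENCODE M21 and sequence from mm10. Distances run from region midpoints to the outermost gene start, and a region within 1 kb of any annotated start counted as at a start. limma 3.58.1 in R 4.3.3 compared Pou4f1 (n = 2) with IgG (n = 2) on log2(signal + 1), without scaling or filter. Python 3.11.15 with scipy 1.17.1 and matplotlib 3.10.9 was used otherwise. Named regions were those at a Sox gene's own start, the strongest in each window, the strongest nearest the Sox gene's coding start, the nearest where none was at the start, and any with the POU motif. Other regions are given to account for all 18. Members, lists and tests were chosen with earlier results of these data known. Alternatives were other scalings, pseudocounts, windows, filters and each library left out. RNA levels were not analysed here.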

Additional observations from a re-analysis of the deposited data

How the results depend on the processing

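The number of calls moved with scaling, pseudocount and the libraries used. The 10 calls became 5 with IgG multiplied by 2 (36.7% of all regions called higher) and 3 with IgG multiplied by 4 (26.8%). Column totals as library sizes gave 3 (22.7%) and a pseudocount of 0.1 gave 5 (43.4%), but a pseudocount of 10 gave 14 (92.6%). The share in the main fit was 64.8%, so the whole table moved the same way. That share also fell without a Pou4f1 replicate and rose without an IgG column. They were 6 of 7 among the upper regions by Pou4f1 signal, and from 3 to 15 with 1 library left out. The fewest, 3, came without Pou4f1 replicate 1 or 2. The upper regions were chosen by the Pou4f1 signal under test, which favours calls, and no share of all upper regions is given. The 6 of 7 therefore cannot be read as a result about the Sox loci. Over all regions, column totals moved the median log2 difference by -2.48 and IgG multiplied by 4 by -1.02. The median at the Sox loci was then 0.70 and 2.395. It was 3.80 to 4.47 with 1 library left out. Column totals turned the sign at Sox4 +0.31 kb (-0.31), Sox12 -0.86 kb (-0.22), Sox12 +1.43 kb (-2.80), Tbc1d20 (-1.33), Sox9 (-2.12) and Sox6 -1.26 kb (-1.21). IgG multiplied by 4 did so at Sox12 +1.43 kb (-0.78) and Sox9 (-0.10), and leaving out the negative control did so at Sox8 (-0.46, against 5.61 without the column named IgG). SoxC minus progenitor signal was -0.14 with Sox5 and Sox6 added and 0.49 to 1.01 with a Pou4f1 library left out. The 3 regions at 0 in both IgG libraries, in Sox11, Sox2 and Sox5, were called in all 11 alternatives of the fit, but multiplying IgG or leaving out an IgG column cannot change their difference. Leaving out the tandem repeats (added after seeing the data) gave 10 calls, of 16 regions. Neither repeat had been called higher, so the number of calls could not change. No paired analysis was possible because the IgG columns carry no replicate number, so the fit with a replicate block was not run. The sparse IgG signal limits every difference, and 0 in IgG is not absence of signal.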
